A study of Homo sapiens with 6 samples.

Results

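The genes described here were 4 kinases of the secretory pathway, PKDCC, FAM20A, FAM20B and FAM20C, in YAPC cells with induced GLI2. They were taken from the deposited expression table by symbol, and all 4 were found among its 25442 genes on the primary chromosomes. PKDCC, FAM20B and FAM20C were among the 12493 genes that averaged 1 FPKM or more over the libraries, and FAM20A was below that level. FPKM is the density of mapped fragments over a transcript, scaled to its length and to the size of the library. The members were chosen by symbol with the measured difference in FPKM between these groups in view, so their values are given as a description, with no test.

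Secretory pathway kinases act inside the endoplasmic reticulum and Golgi apparatus or outside the cell, on proteins and sugars that never meet the kinases of the cytosol. PKDCC, also called VLK, is a secreted kinase that places phosphate on tyrosine, and matrix metalloproteinases are among its known substrates. FAM20C is the Golgi casein kinase, which phosphorylates serine in many secreted proteins, osteopontin (SPP1) among them. FAM20A is a pseudokinase that binds FAM20C and raises its activity, and FAM20B phosphorylates the xylose of the sugar linker that joins glycosaminoglycan chains to proteoglycans.

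YAPC is an established human pancreatic ductal adenocarcinoma (PDA) line. The cells carried rtTA and the doxycycline (Dox)-inducible vector pRetroX-Tight-Puro, either empty (YAPC-iEV) or with a GLI2 cDNA (YAPC-iGLI2), and both groups received Dox for 6 days before RNA-seq. There were 3 libraries per group and no library without Dox, and GLI2 came from a transgene under a Dox-responsive promoter. The labels do not say whether the replicates were separate cultures, so the p-values below measure only the spread between these libraries. As a check of the labels, GLI2 was at 0.466, 0.412 and 0.344 FPKM in YAPC-iEV replicates 1 to 3 and at 94.5, 207 and 195 FPKM in YAPC-iGLI2 replicates 1 to 3. The groups did not overlap (difference of 6.81 in log2(FPKM + 1), SE 0.30, limma, adjusted p = 0.000162), and the first YAPC-iGLI2 replicate held 0.470 times the mean GLI2 level of the other 2.

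Summed FPKM was 803145 to 1082680 per library, of which the small RNA MIR4461 took 35.7% to 45.4%, and the table gives no read counts, so sequencing depth is unknown. The epithelial markers KRT19 (521 to 682 FPKM), EPCAM (396 to 526 FPKM) and CDH1 (51.0 to 72.5 FPKM) were high in all 6 libraries, and EPCAM and CDH1 were called higher in YAPC-iGLI2. KRT8 and KRT18, keratins of simple epithelium that share a locus in the table, were listed at 0 in all 6 libraries, so a 0 in this table cannot be read as absence. Of 9 markers of other cell types, summing to 13.5 to 17.6 FPKM in YAPC-iEV and 10.8 to 18.2 FPKM in YAPC-iGLI2, COL1A1 was called (1.29 to 1.54 against 2.28 to 2.98 FPKM). LYZ, the highest of them (10.3 to 14.2 against 5.45 to 14.2 FPKM), was not called. The merged entry that holds INS (1.39 to 1.49 against 1.34 to 2.37 FPKM) was not called either. PTPRC, CD3E, PECAM1, VWF, PDGFRB and CELA3A were at most 0.313 FPKM. The part of these 9 markers in the values below was not tested. Over the 12493 genes tested, 21.9% passed an adjusted p under 0.05 by limma, 10.1% higher and 11.8% lower in YAPC-iGLI2, and the median difference was -0.015 in log2(FPKM + 1). The direction of calls depended on scaling: 46.0% of them were higher, against 59.4% once small RNA genes were left out and the libraries rescaled. The level of a transcript in bulk RNA cannot separate more RNA per cell from more cells that make it.

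PKDCC lies on chromosome 2 at 42275161 to 42285668 in hg19, on the plus strand, and its longest coding transcript in GENCODE 44 has 7 exons and a coding length of 1479 bases. In YAPC-iEV its level was 1.87, 1.53 and 1.12 FPKM in replicates 1 to 3. In YAPC-iGLI2 it was 24.2, 28.0 and 32.1 FPKM. The lowest YAPC-iGLI2 library was thus 13.0 times the highest YAPC-iEV library, and the groups did not overlap. The means were 1.51 ± 0.375 and 28.1 ± 3.95 FPKM (SD, n = 3), a ratio of 18.7. On the log2(FPKM + 1) scale the difference was 3.54 (SE 0.15), which understates the change of a gene this low in the control, since the log2 ratio of the means themselves was 4.22.

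Among all genes tested, PKDCC stood 24th by that difference, from the most positive. Its level was above that of 7.28% of the tested genes in YAPC-iEV and above that of 73.9% in YAPC-iGLI2. Inside the YAPC-iGLI2 group, PKDCC in the first replicate was 0.806 times the mean of the other 2. The corresponding ratio was 0.470 for GLI2, 0.521 for SPP1 and 0.615 for MMP1. The YAPC-iGLI2 library with the lowest GLI2 level was therefore also the lowest of that group for PKDCC, but by a smaller margin than for those genes. Replicates 2 and 3 ran in opposite orders, with GLI2 at 207 and 195 FPKM and PKDCC at 28.0 and 32.1 FPKM. Replicate 1 of YAPC-iGLI2 also had the lowest summed FPKM of all libraries (803145). A relation between the levels of GLI2 and PKDCC was not tested.

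FAM20C lies on chromosome 7 at 192969 to 300740 in hg19, on the plus strand, with 10 exons and a coding length of 1752 bases. It was at 2.71, 1.66 and 1.71 FPKM in YAPC-iEV replicates 1 to 3. It was at 2.32, 1.46 and 1.24 FPKM in YAPC-iGLI2. The groups overlapped, with means of 2.03 ± 0.593 and 1.68 ± 0.568 FPKM (SD, n = 3). The difference in log2(FPKM + 1) was -0.18 with an SE of 0.20, smaller than its own error. Replicate 1 was the highest library of both groups, at 1.61 times the mean of the other 2 in YAPC-iEV and 1.71 times in YAPC-iGLI2. The size of the FAM20C difference rested on those libraries: it was -0.03 without YAPC-iEV replicate 1 and -0.35 without YAPC-iGLI2 replicate 1. Each of these fits kept the high replicate 1 of the other group.

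FAM20A, the partner of FAM20C, was the lowest of the 4 genes in every library. Its transcript lies on chromosome 17 at 66531254 to 66597508 in hg19, on the minus strand, with 11 exons and a coding length of 1623 bases. The deposited table gives it a wider locus, 66255323 to 66597095, shared with ARSG, MIR635, PRKAR1A, SLC16A6 and WIPI1. The level was 0.0258, 0.0282 and 0.0391 FPKM in YAPC-iEV and 0.00586, 0.00830 and 0.0183 FPKM in YAPC-iGLI2. The YAPC-iGLI2 libraries were all below the YAPC-iEV libraries, but every value was far below the pseudocount of 1, and the difference in log2(FPKM + 1) was -0.03 (SE 0.01). PRKAR1A, at 138 FPKM in its lowest library, overlaps FAM20A by 16207 bases on the opposite strand. The labels name no strand-marking step in library making, so reads from that overlap cannot be told apart by strand.

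FAM20B lies on chromosome 1 at 178995074 to 179045702 in hg19, on the plus strand, with 8 exons and a coding length of 1227 bases. It was at 18.5, 18.4 and 18.2 FPKM in YAPC-iEV replicates 1 to 3. It was at 20.7, 19.6 and 19.6 FPKM in YAPC-iGLI2. The groups did not overlap, although the means of 18.4 ± 0.152 and 20.0 ± 0.667 FPKM (SD, n = 3) were only 1.09-fold apart. The difference in log2(FPKM + 1) was 0.11 (SE 0.053), and 33.6% of all tested genes differed by less in either direction. With small RNA genes left out and the libraries rescaled the FAM20B difference was 0.19. Among the tested genes as a whole, the groups failed to overlap for 42.0%, so nothing is read from the lack of overlap for PKDCC and FAM20B.

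**Figure D1:**
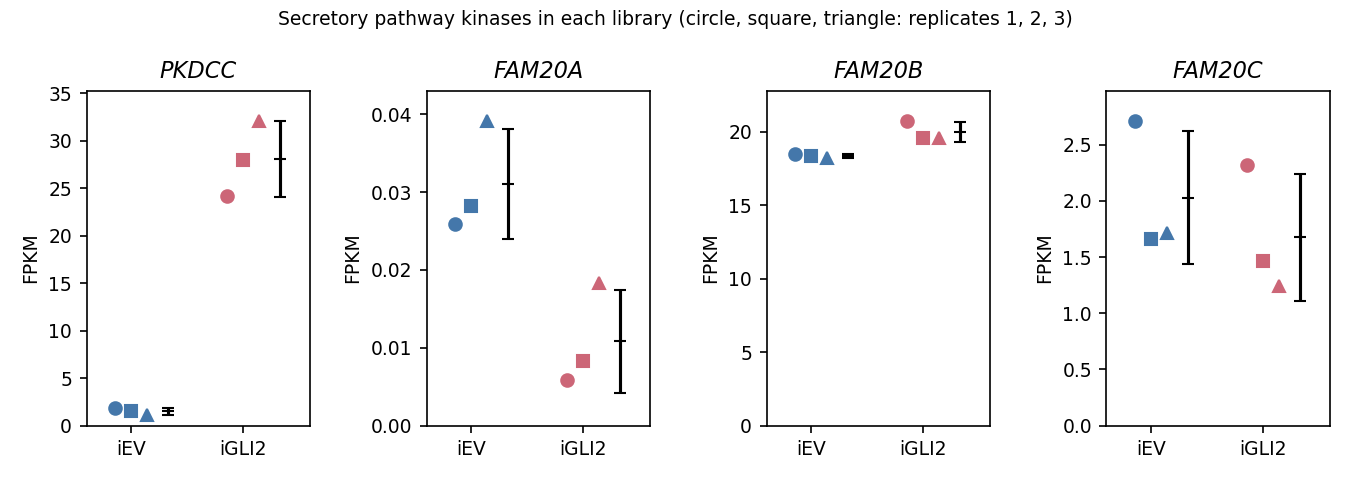
FPKM of the 4 kinase genes in each library (blue, YAPC-iEV; red, YAPC-iGLI2; circle, square and triangle, replicates 1, 2 and 3), with the group mean and SD as a black bar; each panel has its own scale from 0. PKDCC separated the groups by the widest margin (1.12 to 1.87 against 24.2 to 32.1 FPKM), FAM20B was between 18.2 and 20.7 FPKM in all, FAM20C overlapped, and FAM20A was at most 0.0391 FPKM.

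The sequence before the RefSeq start of FAM20B and FAM20C is shown for the members that had an entry, and was not selected by their levels. Both were taken from RefSeq (GRCh38.p14, plus strand, the 250 bases before the start of the entry), a build other than that of the table. That start was not compared with the gene positions given above, so a window may reach into the gene. Of the 4 genes, 2 matched an entry and PKDCC and FAM20A did not. Capitals mark the GC box, GGGCGG or CCGCCC on the other strand, the sequence bound by SP1-family factors.
FAM20B, chr1:179025874-179026123: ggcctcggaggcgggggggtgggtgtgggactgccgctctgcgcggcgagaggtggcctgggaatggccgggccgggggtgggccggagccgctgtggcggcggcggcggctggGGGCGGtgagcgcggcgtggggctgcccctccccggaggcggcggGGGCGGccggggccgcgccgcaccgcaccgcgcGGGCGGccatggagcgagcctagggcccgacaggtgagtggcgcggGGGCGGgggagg
FAM20C, chr7:192321-192570: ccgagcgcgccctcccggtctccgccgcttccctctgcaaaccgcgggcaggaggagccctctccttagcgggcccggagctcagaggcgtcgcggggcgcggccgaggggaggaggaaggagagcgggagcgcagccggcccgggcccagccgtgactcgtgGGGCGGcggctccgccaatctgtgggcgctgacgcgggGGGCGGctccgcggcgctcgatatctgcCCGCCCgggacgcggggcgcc
The FAM20B window was 83.6% G or C, with 36 CG pairs and 4 GC boxes. The FAM20C window was 78.4% G or C, with 38 CG pairs and 3 GC boxes. Over 35116 promoters of that length, the median was 11 CG pairs, and 42.6% held a GC box. The core of the motif that GLI factors bind, ACCACCC or GGGTGGT on the other strand, was in neither window and in 4.15% of all promoters. That says only that these letters are not in these windows.

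FPKM is per length, so the 4 genes can be compared with each other within a library. In all 3 YAPC-iEV libraries the order from the highest was FAM20B, FAM20C, PKDCC, FAM20A. FAM20B was 9.93 to 16.3 times PKDCC there, whereas PKDCC was closer to FAM20C, at 0.688, 0.924 and 0.652 times its level in replicates 1 to 3. The PKDCC and FAM20C values of the YAPC-iEV group as a whole overlapped (1.12 to 1.87 and 1.66 to 2.71 FPKM). In all 3 YAPC-iGLI2 libraries the order was PKDCC, FAM20B, FAM20C, FAM20A, and PKDCC was 1.17 to 1.64 times FAM20B. The summed level of the 4 genes was 21.1 to 23.1 FPKM in YAPC-iEV and 47.3 to 52.9 FPKM in YAPC-iGLI2. PKDCC made up 5.30% to 8.06% of that sum in the first group and 51.2% to 60.6% in the second. The measured kinase transcripts thus went from mostly FAM20B to mostly PKDCC. FAM20C made up 7.69% to 11.7% of the sum in YAPC-iEV and 2.35% to 4.91% of the larger sum in YAPC-iGLI2.

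**Figure D2:**
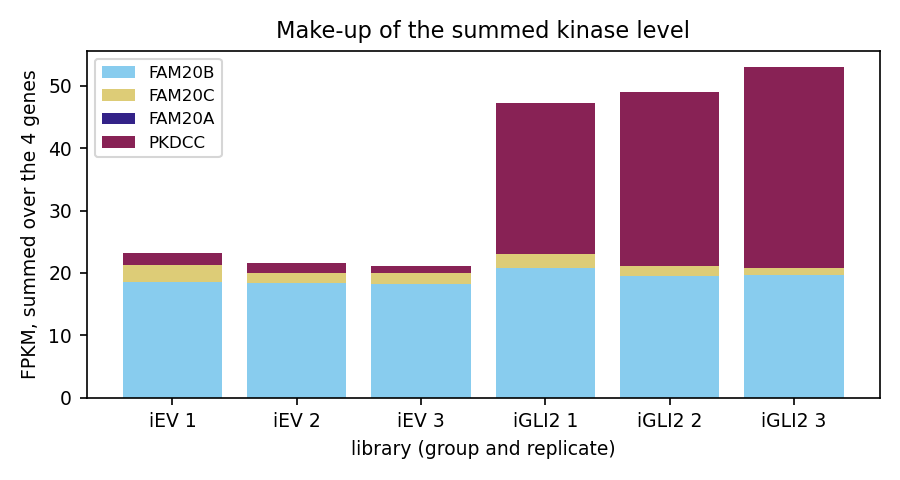
Summed FPKM of FAM20B, FAM20C, FAM20A and PKDCC in each library (stacked bars from 0; x axis, group and replicate). The FAM20B segment is similar in all 6 bars, and the bars reach 21.1 to 23.1 FPKM in YAPC-iEV and 47.3 to 52.9 FPKM in YAPC-iGLI2 through the PKDCC segment, while FAM20A is too low to be visible.

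The genes whose pattern over the 6 libraries was closest to each kinase were ranked by the root mean square (RMS) difference of log2(FPKM + 1), each gene centred on its own mean. SLC13A5, the plasma membrane citrate carrier, was closest to PKDCC, with an RMS difference of 0.173 and levels of 2.36, 1.52 and 1.62 FPKM in YAPC-iEV and 21.7, 28.1 and 29.1 FPKM in YAPC-iGLI2. Next came PDGFB, a growth factor subunit (RMS 0.212), PLA1A, a secreted phospholipase (RMS 0.238), COL13A1, a transmembrane collagen (RMS 0.270), and CABP1, a calcium-binding protein (RMS 0.275). COL13A1 averaged 0.194 FPKM in YAPC-iEV and 10.7 FPKM in YAPC-iGLI2, and CABP1 0.0758 and 8.10 FPKM. These 2 genes passed the filter on low values through the YAPC-iGLI2 libraries alone. Values far below the pseudocount of 1 hardly differ on this scale, so their closeness to PKDCC is not a likeness in ratio. Closest to FAM20B were TRAK2 (RMS 0.0108) and SEC63, part of the protein import machinery of the endoplasmic reticulum (RMS 0.0152). Closest to FAM20C were FAM210A (RMS 0.0379), at 15.0 FPKM in YAPC-iEV replicate 1 against 11.3 and 11.2 FPKM in replicates 2 and 3, and TRAF5 (RMS 0.0393). Both shared with FAM20C the higher first replicate in each group, which follows from their choice by closeness over these same libraries.

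PKDCC has been reported to phosphorylate MMP1, MMP13, ERP29 and EPHB2, and all 4 of these genes were tested. MMP1 and MMP13 were called higher in YAPC-iGLI2 and none lower (2 of 4, beside 21.9% of all tested genes called), and the median difference of the 4 was 0.55 against -0.015 for all tested genes. Both averaged under 1 FPKM in YAPC-iEV and passed the filter on low values through the YAPC-iGLI2 libraries alone, so the count and the median are no support for a change of the list. MMP1, an interstitial collagenase, was at 0.203, 0.500 and 0.269 FPKM in YAPC-iEV and 2.31, 4.04 and 3.48 FPKM in YAPC-iGLI2, with no overlap (difference of 1.68, SE 0.18, limma, adjusted p = 0.0025). Its locus in the table also takes in WTAPP1 and MMP3, so its reads are uncertain. MMP13, also a collagenase, was at 0.953, 1.06 and 0.853 FPKM and then 1.64, 3.24 and 2.44 FPKM (0.79, SE 0.18, limma, adjusted p = 0.0293). The MMP13 call was lost on leaving out any library other than YAPC-iGLI2 replicate 1, and with the digit in the sample codes as a block. ERP29, a chaperone of the endoplasmic reticulum (-0.27), and EPHB2, an ephrin receptor (0.31), were not called (limma, adjusted p = 0.0633 and 0.0808). Both collagenases were low transcripts, at 4.04 FPKM or less in every library, beside 24.2 FPKM or more of PKDCC in YAPC-iGLI2.

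Of 22 genes for reported FAM20C substrates in the table, 6 were tested, 2 were called higher in YAPC-iGLI2 and none lower (33.3%, beside 21.9% of all tested genes), with a median difference of 0.0074. A further 6, with the bone and tooth matrix genes IBSP and DSPP and the caseins CSN2 and CSN1S1 among them, were listed at 0 in all libraries. SPP1, the acidic bone phosphoprotein osteopontin, was at 1.21, 1.52 and 1.63 FPKM in YAPC-iEV and 286, 562 and 536 FPKM in YAPC-iGLI2 (7.50, SE 0.27, limma, adjusted p = 0.000131). FAM20C was thus at 1.24 to 2.71 FPKM in libraries whose SPP1 level spanned that range. QSOX1, a secreted thiol oxidase, was at 148, 159 and 158 FPKM and then 179, 194 and 187 FPKM (0.27, SE 0.064, limma, adjusted p = 0.0327). The QSOX1 call was lost on leaving out any library other than YAPC-iGLI2 replicate 1, and with the digit in the sample codes as a block. IGFBP3 (-0.21), APLP2 (0.05), ERO1A (-0.37) and P4HB (-0.04) were not called.

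FAM20B acts on the proteoglycan linker, and 13 of 16 genes for the linker and the chains built on it were tested, of which 3 were called higher and 1 lower (30.8%, beside 21.9% of all tested genes), with a median difference of 0.045. PXYLP1, the phosphatase that removes the phosphate FAM20B adds to xylose, was at 1.35, 1.54 and 1.85 FPKM in YAPC-iEV and 3.21, 3.56 and 3.63 FPKM in YAPC-iGLI2 (0.79, SE 0.099, limma, adjusted p = 0.00373). EXT1, a polymerase of heparan sulfate, was at 17.4, 19.5 and 18.2 FPKM and then 8.73, 9.50 and 9.58 FPKM (-0.91, SE 0.068, limma, adjusted p = 0.000746). Neither gene overlapped between the groups, and FAM20B itself was 1.09-fold apart in the same libraries. CHPF, which helps to extend chondroitin (0.57, limma, adjusted p = 0.0165), and EXTL2, a transferase that acts on the phosphorylated linker (0.44, limma, adjusted p = 0.0253), were higher, and both calls were lost without YAPC-iEV replicate 2 or 3 or YAPC-iGLI2 replicate 2 or 3. CHPF shares its locus with TMEM198 and MIR3132, so its reads are uncertain. The enzymes that build the linker, XYLT2 (0.11), B4GALT7 (-0.25), B3GALT6 (0.04) and B3GAT3 (-0.05), were not called, and XYLT1 was listed at 0.

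Phosphatases, nucleotidases and phosphate or pyrophosphate carriers at the cell surface, in the lumen or outside the cell gave 12 tested genes of 17, of which 3 were called higher and 2 lower (41.7%, beside 21.9% of all tested genes), with a median difference of 0.034. ENPP1, which makes pyrophosphate from extracellular ATP, was at 1.19, 1.30 and 1.28 FPKM in YAPC-iEV and 3.89, 4.16 and 3.77 FPKM in YAPC-iGLI2 (1.13, SE 0.073, limma, adjusted p = 0.000504). NT5E (CD73), which makes adenosine from AMP outside the cell, was at 71.4, 75.8 and 77.1 FPKM and then 149, 154 and 152 FPKM (1.01, SE 0.058, limma, adjusted p = 0.000351). ACP5, the tartrate-resistant acid phosphatase known to act on osteopontin, was at 77.9, 71.6 and 64.5 FPKM and then 35.5, 36.3 and 38.3 FPKM (-0.94, SE 0.084, limma, adjusted p = 0.00128). For each of these genes all YAPC-iGLI2 libraries lay on the same side of all YAPC-iEV libraries. ENPP3 (0.52, limma, adjusted p = 0.0297), whose locus is shared with OR2A4 and CTAGE9, averaged under 1 FPKM in YAPC-iEV and was not called without YAPC-iEV replicate 1 or 2. Without YAPC-iGLI2 replicate 2 or 3 it fell below the filter and was not tested. With all libraries, ENPP3 passed the filter through the YAPC-iGLI2 libraries alone, so the count is no support for a change of the list. SLC20A2, a phosphate carrier whose locus is shared with SMIM19 (-0.29, limma, adjusted p = 0.0221), was not called on leaving out any library other than YAPC-iGLI2 replicate 1, nor after the rescaling without small RNA genes (-0.21).

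Other kinases of the same families were represented by 9 genes in the table, of which 5 were tested and 1, FAM198B, was called, a share near the 21.9% of all tested genes, with a median difference of 0.22. FAM198B (GASK1B), a Golgi-associated relative of FAM20, was at 6.68, 3.54 and 3.14 FPKM in YAPC-iEV and 12.7, 10.6 and 11.5 FPKM in YAPC-iGLI2 (1.26, SE 0.24, limma, adjusted p = 0.0158). The groups did not overlap, but the call was lost without YAPC-iEV replicate 2, YAPC-iEV replicate 3 or YAPC-iGLI2 replicate 3. FAM69A (0.39), POMK, a kinase of the dystroglycan sugar chain (0.22), FAM69B (0.08) and FJX1 (-0.25) were not called.

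**Figure D3:**
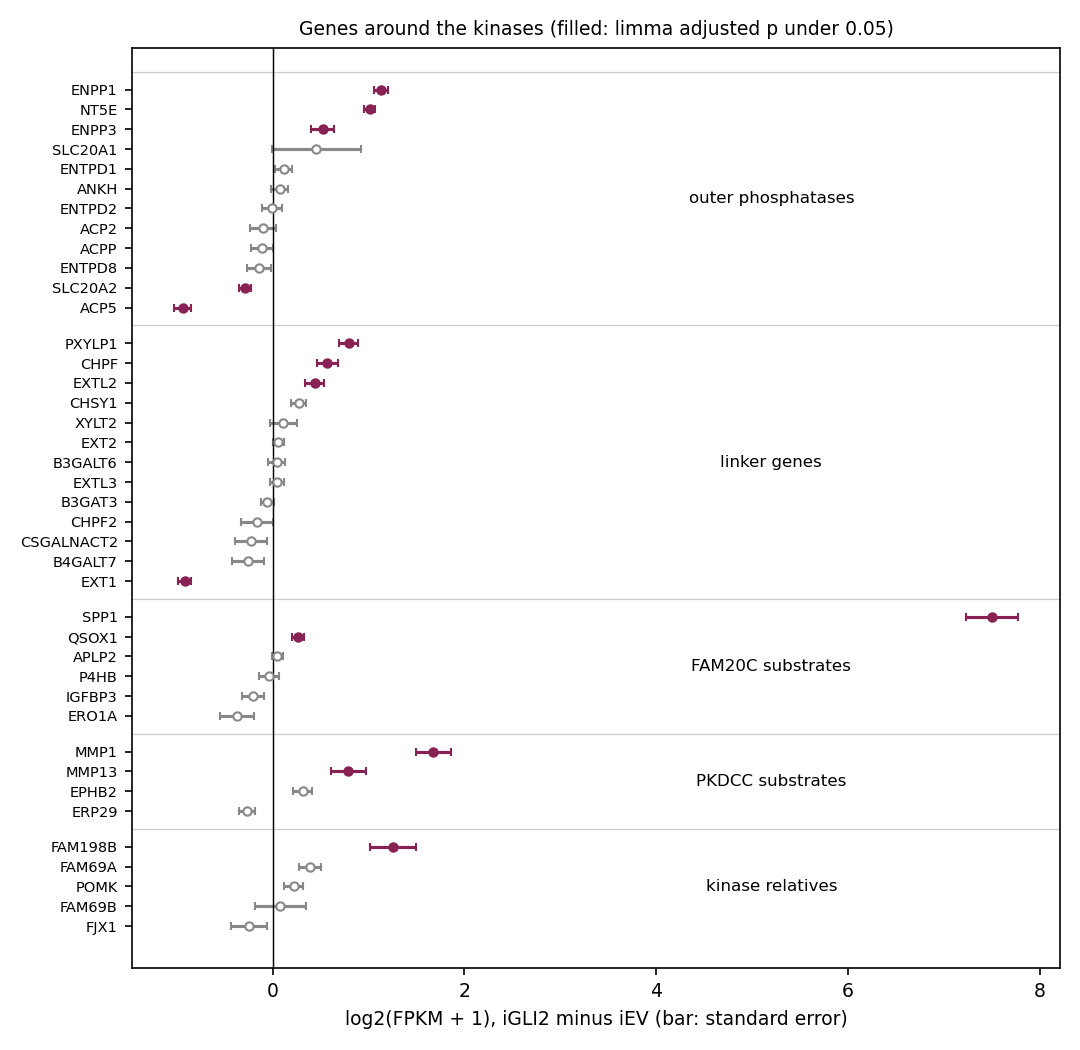
Difference in log2(FPKM + 1), YAPC-iGLI2 minus YAPC-iEV (x axis, with the SE as a bar), for the tested genes of 5 lists around the kinases (linker genes are those of the proteoglycan linker and chains); filled points passed an adjusted p under 0.05 by limma. SPP1 stands far to the right at 7.50, MMP1 and FAM198B lead their lists at 1.68 and 1.26, and EXT1 and ACP5 lie at -0.91 and -0.94.

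Within 500000 bases of the 4 kinase loci the table held 43 other entries, of which 19 were tested, 2 were called higher and 1 lower, a share of 15.8% beside 21.9% of all tested genes. None of the 3 tested neighbours of PKDCC was called. The nearest, EML4, 83907 bases after it, was at 60.4, 53.7 and 54.6 FPKM in YAPC-iEV and 51.5, 46.4 and 45.9 FPKM in YAPC-iGLI2 (-0.22, limma, adjusted p = 0.0928). COX7A2L (0.08) and MTA3 (0.16) lay farther out. The differences of these 3 tested genes ran from -0.22 to 0.16, beside 3.54 for PKDCC. Entries below the filter were not tested. Among them LOC101929723, 114298 bases before PKDCC and picked out after its values were seen, was at 0.0556, 0 and 0 FPKM in YAPC-iEV. In YAPC-iGLI2 it was at 1.97, 0.932 and 1.35 FPKM.

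The other kinases had 1 called neighbour each. PDGFA, a growth factor subunit 236157 bases after FAM20C, was at 3.43, 1.96 and 2.02 FPKM in YAPC-iEV and 10.7, 8.33 and 8.39 FPKM in YAPC-iGLI2 (1.56, SE 0.18, limma, adjusted p = 0.00316), with no overlap. WIPI1, an autophagy protein whose gene shares the table's FAM20A locus, differed by 0.49 (limma, adjusted p = 0.0278), a call lost without YAPC-iEV replicate 2 or 3 or YAPC-iGLI2 replicate 2 or 3. AMZ2, the nearest tested entry before FAM20A, was not called (0.11). TOR3A, 5410 bases after FAM20B, was at 29.6, 29.6 and 29.9 FPKM and then 25.6, 25.0 and 25.7 FPKM (-0.22, SE 0.049, limma, adjusted p = 0.0287). The TOR3A call was lost under upper quartile scaling, quantile normalization and the rescaling without small RNA genes. It was also lost with the digit in the sample codes as a block, and on leaving out any library other than YAPC-iGLI2 replicate 1. RALGPS2, on the other side of FAM20B, was not called (0.24).

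**Figure D4:**
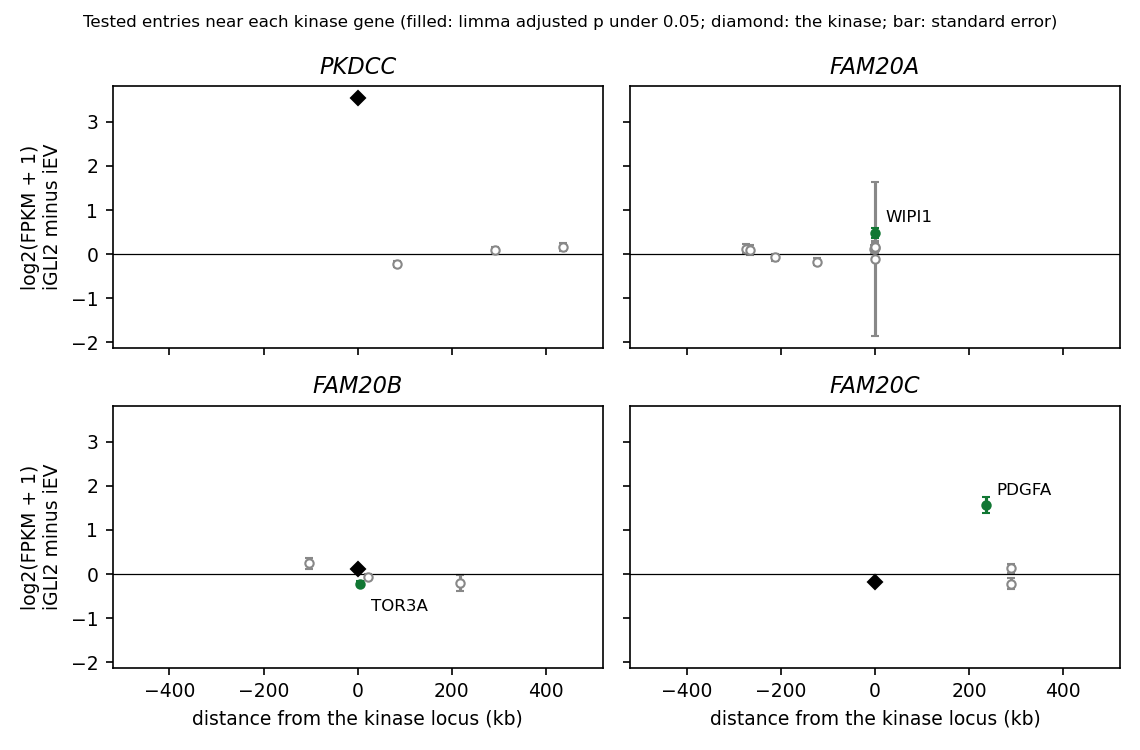
Difference in log2(FPKM + 1), YAPC-iGLI2 minus YAPC-iEV, of the tested entries within 500000 bases of each kinase locus, against their distance from it in kb (bar, SE); filled circles passed an adjusted p under 0.05 by limma, and the black diamond is the kinase, which FAM20A lacks because it was below the filter. The PKDCC diamond stands at 3.54 with its tested neighbours near 0, and PDGFA at 1.56 is the highest circle near FAM20C. Entries below the filter, LOC101929723 near PKDCC among them, are not drawn. The long bar at FAM20A is the small RNA entry MIR635.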

How the data were processed

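RNA-seq was analysed for 6 libraries, 3 each of YAPC-iEV and YAPC-iGLI2, grouped by the plasmid and title in the labels. The values are FPKM made by the authors, who used Trimmomatic for trimming, TopHat2 for alignment (hg19) and then Cuffdiff (2.1.1 in the submitters' processing notes). The column header of the deposited table names no unit, and FPKM was inferred from the values and tools. The annotation and the scaling between libraries are not given in the sources used here. MIR4461 takes a large share of each FPKM total. FPKM is divided by length, so that is not its share of the mapped fragments, which is unknown. The rescaling without small RNA genes set the remaining FPKM sums equal, not the fragment counts. Whether a change in small RNA shifted the other values was not tested.

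Of 27024 entries, 1252 off the primary chromosomes were left out, and 330 that shared a name with a higher entry were dropped, as the rule for the members asks. Genes that averaged 1 FPKM or more were fitted with limma 3.58.1 (R 4.3.3; eBayes with trend) on log2(FPKM + 1), with group as the only term. The test is two-sided, adjusted by Benjamini-Hochberg over all 12493 genes, with a threshold of 0.05. The code was tested on simulated data. Cuffdiff was not rerun, since it needs reads, and low values gave no common step that would recover read counts. Columns without a sample numbered 0.

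The members and gene lists were chosen with earlier results of these data known. From the list of FAM20C substrates, 1 gene is not reported here and is in none of the counts for the list. The named genes were the 4 members, GLI2, SPP1, up to 4 called genes per list and direction by smallest p, nearest and called neighbours, and the genes closest in pattern (5 for PKDCC, 2 for each FAM20 gene tested). Other listed genes are named to account for the rest. Gene structures are from GENCODE 44 lifted to GRCh37, and promoters from RefSeq. Alternatives covered the pseudocount, scaling, filter, blocks, trend, threshold and leaving out each library.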

Additional observations from a re-analysis of the deposited data

How the results depend on the processing

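The alternatives other than the threshold of 0.01 were followed for the members, GLI2 and 17 of the named genes, all 17 called in the main fit. None of these differences changed sign where the gene was fitted. Uncalled neighbours and the genes closest in pattern were not followed in this way. Over all genes the balance did shift with scaling: the share of calls that were higher was 46.0%, against 54.3% with upper quartile scaling and 59.4% with small RNA genes left out. With a pseudocount of 0.1 the difference was 4.15 for PKDCC and -0.24 for FAM20A. FAM20B was 0.15 with upper quartile scaling and 0.19 with small RNA genes left out, and no scaling moved the median of all genes by over 0.1. Without a filter on low values, calls numbered 5 for FAM20C substrates and 5 for neighbours. With a mean of at least 5, calls were 0 for PKDCC substrates, 2 for linker genes and 3 for the phosphatases, because fewer genes were tested, and FAM20C could not be fitted. With small RNA genes left out, 2 kinase relatives were called. With the digit in the sample codes as a block, 1 FAM20C substrate and 1 PKDCC substrate were called. At an adjusted p under 0.01, calls were 1 for FAM20C substrates, 1 for PKDCC substrates, 0 for kinase relatives, 2 for linker genes, 1 for neighbours and 3 for the phosphatases.

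Leaving out each library in turn gave 3.42 to 3.64 for PKDCC, 0.09 to 0.13 for FAM20B, -0.35 to -0.03 for FAM20C and -0.034 to -0.023 for FAM20A. It gave 1 to 3 FAM20C substrates, 1 to 4 PKDCC substrates, 0 to 2 kinase relatives, 2 to 6 linker genes, 3 to 5 phosphatases and 1 to 6 neighbours. Over all genes, 2742 calls became 1222 without YAPC-iEV replicate 2, 1295 without YAPC-iEV replicate 3, 1362 without YAPC-iGLI2 replicate 2, 1492 without YAPC-iGLI2 replicate 3, and 1095 at an adjusted p under 0.01, and rose to 3744 without YAPC-iGLI2 replicate 1. Of 247 values for the 17 called genes over the alternatives other than the 0.01 threshold, 203 stayed called and 44 were no longer called. At 0.01, CHPF, ENPP3, EXTL2, FAM198B, MMP13, QSOX1, SLC20A2, TOR3A and WIPI1 would not pass (limma, adjusted p = 0.0158 to 0.0327 in the main fit).

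The deviations of same-numbered libraries correlated at 0.204, 0.0919 and 0.0276 over genes, against -0.193 to 0.117 for libraries of different numbers. The highest of all these values was that of the replicates numbered 1. The numbers were not taken to pair the libraries in the main fit. With the replicate number as a block, 3928 genes were called against 2742. The block left the difference of each member as it was by construction, with an SE of 0.076 for FAM20C and 0.17 for PKDCC. Between libraries of the same number, YAPC-iGLI2 minus YAPC-iEV, FAM20C differed by -0.393, -0.197 and -0.469 FPKM. The depth of the libraries is unknown, and no limit was set for genes at or near 0, FAM20A included.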

Other observations

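Genes below the filter of a mean of 1 FPKM were not part of the counts, and 5 of the listed genes and neighbours among them passed the adjusted threshold in the limma fit without that filter. They were picked out after their values were seen. LOC101929723, 114298 bases before PKDCC, was at 0.0556, 0 and 0 FPKM in YAPC-iEV and 1.97, 0.932 and 1.35 FPKM in YAPC-iGLI2, with no overlap, whereas C2orf91 and LOC388942, also before PKDCC, overlapped between the groups. ABCA8, a membrane transporter 266333 bases from the FAM20A locus, was at 0.662, 1.04 and 1.13 FPKM in YAPC-iEV and 0, 0 and 0.0242 FPKM in YAPC-iGLI2.

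The other 3 belong to the FAM20C substrate list. IGFBP1, a secreted binding protein of insulin-like growth factors, was at 0.485, 0.140 and 0.102 FPKM in YAPC-iEV and 1.50, 1.75 and 1.80 FPKM in YAPC-iGLI2. IGFBP5, of the same family, was at 0.0983, 0.118 and 0.0515 FPKM and then 0.995, 1.17 and 1.11 FPKM. VWF, best known from endothelium, was at 0.301, 0.278 and 0.313 FPKM and then 0.124, 0.172 and 0.150 FPKM. The groups did not overlap for any of the 5, as for 42.0% of the genes above the filter.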
